A study of Homo sapiens with 24 samples.

Results

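Adipocyte differentiation genes were followed in SW872 liposarcoma cells (an established human line) after expression of the YAP and TAZ fusion proteins of epithelioid hemangioendothelioma. The 10 genes PPARG, CEBPA, CEBPB, CEBPD, FABP4, LPL, CD36, PLIN2, PLIN3 and ADIPOQ were looked up by Ensembl identifier among the 60279 genes listed for each library, and every identifier was found in all 24 libraries. All cells carried a retroviral vector and were kept as stable lines selected with G418. The empty vector (EV) was compared with YAP-TFE3, TAZ-CAMTA1, the full-length proteins TFE3 and CAMTA1, and TAZ4SA and YAP5SA, the forms of TAZ and YAP with serines changed to alanine that escape Hippo pathway inhibition. An additional empty vector group (EVsub) was collected below confluence and served as the control for CAMTA1, which was also collected below confluence. The other groups were collected 48 h after confluence. Each of the 8 groups held 3 libraries of pooled transduced cells, and per the study's methods the 3 came from separate transductions, each selected as a stable line.

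Fat cells form from mesenchymal precursors through a cascade of transcription factors. CEBPB and CEBPD are switched on first and induce PPARG and CEBPA, which sustain each other and drive the genes of the mature fat cell. Among these are LPL, the secreted lipase that releases fatty acids from circulating triglyceride, CD36, a fatty acid transporter at the cell surface, FABP4, the fatty acid binding protein of adipocytes, and ADIPOQ, which encodes the hormone adiponectin. PLIN2 and PLIN3 coat lipid droplets in many cell types and are not limited to fat. TAZ is known to bind PPARG and to oppose adipocyte differentiation, and TFE3 belongs to the MiT family of basic helix-loop-helix factors, which bind the E-box.

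Total counts ranged from 19700277 to 35287476 per library. Levels are given as CPM, the count rate that edgeR gives relative to library sizes scaled by the trimmed mean of M-values (TMM), with mean ± SD over 3 libraries, and a gene was called changed at an adjusted p under 0.05 in the quasi-likelihood test of edgeR. The genes behind the constructs were checked first. CAMTA1 rose in the CAMTA1 libraries against EVsub (log2 fold change 2.43 ± 0.09 SE), TFE3 rose in the TFE3 libraries (1.49 ± 0.10) and YAP1 rose in the YAP5SA libraries (0.99 ± 0.10). In the fusions, CAMTA1 measured 139 to 152 CPM in TAZ-CAMTA1 against 19.3 to 23.4 in EV, and TFE3 measured 228 to 325 CPM in YAP-TFE3 against 109 to 129. WWTR1, which encodes TAZ, went against its label: it measured 134 to 135 CPM in the libraries labelled TAZ4SA and 184 to 225 CPM in EV, a fall by 0.60 ± 0.08 on the log2 scale. This was not particular to TAZ4SA. WWTR1 also measured below the EV range in YAP5SA (67.1 to 70.4 CPM), YAP-TFE3 (123 to 129) and TAZ-CAMTA1 (179 to 183). The cause was not tested. In these bulk libraries fewer cells of a type and less RNA per cell cannot be told apart. All directions given here for TAZ4SA therefore belong to the libraries labelled TAZ4SA. A pair of libraries stood apart within their groups for several members, TAZ-CAMTA1 replicate 3 and YAP-TFE3 replicate 3. Values without them are given beside the members that they move most. Over the most variable genes, mean log2 CPM distance to the other libraries of the group was largest for YAP-TFE3 replicate 3 (21.1) and YAP5SA replicate 3 (20.7). For TAZ-CAMTA1 replicate 3 it was 14.1, so that library stood apart for these members and not broadly. Scaling by total counts in place of TMM moved the median gene by -0.20 on the log2 scale in TAZ4SA against EV and by -0.18 in YAP5SA against EV. With that scaling the share of called genes that were higher changed from 50.9% to 31.4% for TAZ4SA, from 51.2% to 31.4% for YAP5SA, from 53.1% to 43.8% for YAP-TFE3 against EV, from 53.7% to 42.0% for EVsub against EV, from 68.9% to 56.8% for CAMTA1 against EVsub, from 50.1% to 67.0% for TAZ-CAMTA1 against TAZ4SA and from 53.1% to 42.5% for YAP-TFE3 against TFE3.

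Promoter windows of the members were searched for short motifs. RefSeq windows of 250 bases upstream of a transcript start (GRCh38.p14) were found for 7 of the 10 members, 18 windows in all, and were searched on both strands for CACGTG, the E-box read by the MiT family, GGAATG, the core of the TEAD site used by YAP and TAZ, and TTGCNNAA, a C/EBP half-site pair. These letters occurred in 6.34%, 11.9% and 9.05% of 35116 windows of the same length. Each of these motifs was found in a single window of the 18. The E-box was in the PLIN2 window and in no window of the other members searched. The TEAD core was found in a single CD36 window, and the C/EBP letters in the most downstream of 6 PPARG windows. The sequences of these 4 genes are written 5′ to 3′ on the strand of the gene, less any bases annotated as exon by GENCODE, with matches in capitals. The printed windows of PPARG, CD36 and PLIN2 lie inside the annotated spans of these genes, downstream of their outermost starts.
PPARG, chr3:12351167-12351416, plus strand, inside an intron of the longer transcripts, TTGCNNAA in capitals: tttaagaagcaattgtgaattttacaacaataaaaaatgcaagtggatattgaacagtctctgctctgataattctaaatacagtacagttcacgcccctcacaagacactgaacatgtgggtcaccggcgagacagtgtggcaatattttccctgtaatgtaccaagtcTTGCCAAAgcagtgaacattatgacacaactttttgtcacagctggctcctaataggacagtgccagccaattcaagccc
CD36, chr7:80601957-80602149, plus strand, GGAATG read on the minus strand in capitals: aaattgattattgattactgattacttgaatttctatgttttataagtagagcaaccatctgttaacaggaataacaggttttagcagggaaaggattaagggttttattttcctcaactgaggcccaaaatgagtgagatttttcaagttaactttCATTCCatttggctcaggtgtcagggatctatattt
PLIN2, chr9:19127493-19127742, minus strand, CACGTG in capitals: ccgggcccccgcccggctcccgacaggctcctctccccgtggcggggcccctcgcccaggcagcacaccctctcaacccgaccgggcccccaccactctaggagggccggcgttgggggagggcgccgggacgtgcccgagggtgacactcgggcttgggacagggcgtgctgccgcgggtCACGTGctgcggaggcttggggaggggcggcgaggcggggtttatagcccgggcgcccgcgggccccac
PLIN3, chr19:4867695-4867917, minus strand, no match: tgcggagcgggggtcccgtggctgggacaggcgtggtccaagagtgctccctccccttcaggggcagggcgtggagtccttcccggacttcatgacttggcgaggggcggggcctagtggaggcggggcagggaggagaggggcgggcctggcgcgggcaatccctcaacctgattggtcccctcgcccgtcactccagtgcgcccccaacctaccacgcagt
A match is a description of letters, and no match says only that these letters are not in this window.

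PPARG, the nuclear receptor that commands fat cell differentiation, was highest in YAP-TFE3 and lowest in the libraries labelled TAZ4SA. PPARG measured 46.3, 51.1 and 43.0 CPM in EV, 46.5, 55.9 and 44.7 CPM in EVsub, 56.6, 53.8 and 50.4 CPM in TFE3, and 40.9, 44.1 and 40.0 CPM in CAMTA1. It measured 66.9, 69.8 and 55.4 CPM in TAZ-CAMTA1, 99.4, 100 and 62.2 CPM in YAP-TFE3, 27.2, 28.5 and 31.1 CPM in TAZ4SA, and 36.3, 29.0 and 32.2 CPM in YAP5SA. All 3 TAZ-CAMTA1 and all 3 YAP-TFE3 libraries lay above the EV libraries, and all 3 TAZ4SA and YAP5SA libraries lay below them. PPARG rose in YAP-TFE3 against EV by 0.90 ± 0.14 on the log2 scale (adjusted p = 8.02e-06) and fell by 0.69 ± 0.14 in TAZ4SA (2.48e-04) and by 0.53 ± 0.14 in YAP5SA (0.00364). In TAZ-CAMTA1 the difference of 0.45 ± 0.14 did not pass (0.0575), although it passed with DESeq2 (0.037) and without TAZ-CAMTA1 replicate 3 (0.55, adjusted p = 0.045). Against their parents, both fusions had higher PPARG, TAZ-CAMTA1 by 1.15 ± 0.14 over TAZ4SA (3.13e-07) and YAP-TFE3 by 1.42 ± 0.14 over YAP5SA (8.56e-09). YAP-TFE3 was also 0.70 ± 0.14 above full-length TFE3 (1.56e-04). Without YAP-TFE3 replicate 3, PPARG in YAP-TFE3 was 1.09 above EV, 1.62 above YAP5SA and 0.90 above TFE3, all called. PPARG sits on chromosome 3 (GENCODE 44, GRCh38, 12287368 to 12434356) and its counts summed all isoforms, so the PPARG1 and PPARG2 proteins cannot be told apart.

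CEBPA, the factor that maintains the fat cell state with PPARG, moved the other way from PPARG under the activated parents. CEBPA was sparse, with 9 to 82 counts per library. It held 22, 21 and 9 counts in EV, 27, 16 and 36 counts in EVsub, 18 counts in each TFE3 library, and 33, 19 and 12 counts in CAMTA1. It held 14, 27 and 43 counts in TAZ-CAMTA1, 32, 60 and 42 counts in YAP-TFE3, 38, 44 and 45 counts in TAZ4SA, and 80, 72 and 82 counts in YAP5SA. In CPM, the YAP5SA level of 3.50 ± 0.25 overlapped no other group and the EV level was 0.665 ± 0.199. CEBPA rose by 2.36 ± 0.28 in YAP5SA (adjusted p = 2.17e-07), by 1.33 ± 0.29 in TAZ4SA (6.35e-04) and by 1.02 ± 0.29 in YAP-TFE3 (0.00609), where it did not pass without YAP-TFE3 replicate 2 (0.73, adjusted p = 0.0607). Both fusions were below their activated parents, by -0.86 ± 0.27 for TAZ-CAMTA1 against TAZ4SA (0.0103) and by -1.34 ± 0.24 for YAP-TFE3 against YAP5SA (6.64e-05). The former did not pass without TAZ-CAMTA1 replicate 1 (-0.62, adjusted p = 0.0616) and was -1.22 (0.00198) without TAZ-CAMTA1 replicate 3. Against EV the TAZ-CAMTA1 difference in CEBPA was 0.47 ± 0.31 (0.462), and 0.11 (0.945) without replicate 3. CEBPA overlaps 2 genes on the opposite strand (chromosome 19, 33299934 to 33302534), and the use of strand in the counting was not stated.

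CEBPB and CEBPD, the early factors of the cascade, were higher in YAP-TFE3 and in the libraries labelled TAZ4SA. CEBPB measured 20.1, 20.5 and 22.4 CPM in EV, 16.3, 20.3 and 18.8 CPM in EVsub, 20.7, 18.7 and 19.9 CPM in TFE3, and 19.2, 16.2 and 17.4 CPM in CAMTA1. It measured 20.4, 19.6 and 47.3 CPM in TAZ-CAMTA1, 59.6, 68.7 and 27.4 CPM in YAP-TFE3, 48.0, 46.4 and 54.6 CPM in TAZ4SA, and 40.6, 41.4 and 49.2 CPM in YAP5SA. Every YAP-TFE3, TAZ4SA and YAP5SA library was above every EV library, while the first 2 TAZ-CAMTA1 libraries sat at the EV level and replicate 3 in the YAP5SA range. CEBPB rose by 1.31 ± 0.26 in YAP-TFE3 (adjusted p = 2.28e-04), by 1.25 ± 0.26 in TAZ4SA (4.13e-04) and by 1.06 ± 0.26 in YAP5SA (0.00207). The CEBPB difference between YAP-TFE3 and EV was 1.61 (2.44e-06) without YAP-TFE3 replicate 3. The TAZ-CAMTA1 difference against EV was 0.48 ± 0.26 (0.356), and -0.07 without TAZ-CAMTA1 replicate 3. TAZ-CAMTA1 was below TAZ4SA by -0.77 ± 0.26 (0.0149), a call that did not pass with total-count scaling (-0.56, adjusted p = 0.0869), without TAZ-CAMTA1 replicate 1 (-0.59, 0.0796) or without replicate 2 (-0.55, 0.101), and that was -1.31 (5.18e-05) without replicate 3. YAP-TFE3 and YAP5SA differed by 0.25 ± 0.26 (0.442), and by 0.55 (0.0399) without YAP-TFE3 replicate 3. CEBPB lies on chromosome 20 (50190830 to 50192668) and shares its place with the antisense gene CEBPB-AS1.

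CEBPD was far less abundant than CEBPB, at 1.97 ± 0.252 CPM per kb of exon in EV against 11.4 ± 0.661 for CEBPB. CEBPD measured 2.49, 2.13 and 2.76 CPM in EV, 2.75, 2.57 and 3.04 CPM in EVsub, 2.81, 1.87 and 2.31 CPM in TFE3, and 2.29, 3.71 and 3.29 CPM in CAMTA1. It measured 2.80, 2.88 and 11.1 CPM in TAZ-CAMTA1, 6.05, 5.34 and 5.55 CPM in YAP-TFE3, 4.74, 5.03 and 6.37 CPM in TAZ4SA, and 2.79, 4.81 and 6.47 CPM in YAP5SA. The TAZ-CAMTA1 mean was set by replicate 3, which held 3.91 times the mean of the other libraries of its group. CEBPD rose by 1.20 ± 0.37 in YAP-TFE3 (adjusted p = 0.0103) and by 1.13 ± 0.38 in TAZ4SA (0.0163). The TAZ4SA call did not pass with total-count scaling (0.94, adjusted p = 0.0523), without EV replicate 2 (1.04, 0.0586) or without TAZ4SA replicate 3 (0.99, 0.0586). In YAP5SA the difference was 0.94 ± 0.39 (0.0504), and 1.21 (0.0207) without YAP5SA replicate 1. In TAZ-CAMTA1 it was 1.21 ± 0.38 (0.0652), passing without replicate 1 (1.50, 0.0166) or replicate 2 (1.52, 0.018), and at 0.21 without replicate 3. TAZ-CAMTA1 against TAZ4SA gave 0.07 ± 0.35 (0.88), and -0.92 (0.00497) without TAZ-CAMTA1 replicate 3. CEBPD lies on chromosome 8 and has no overlapping gene.

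**Figure D1:**
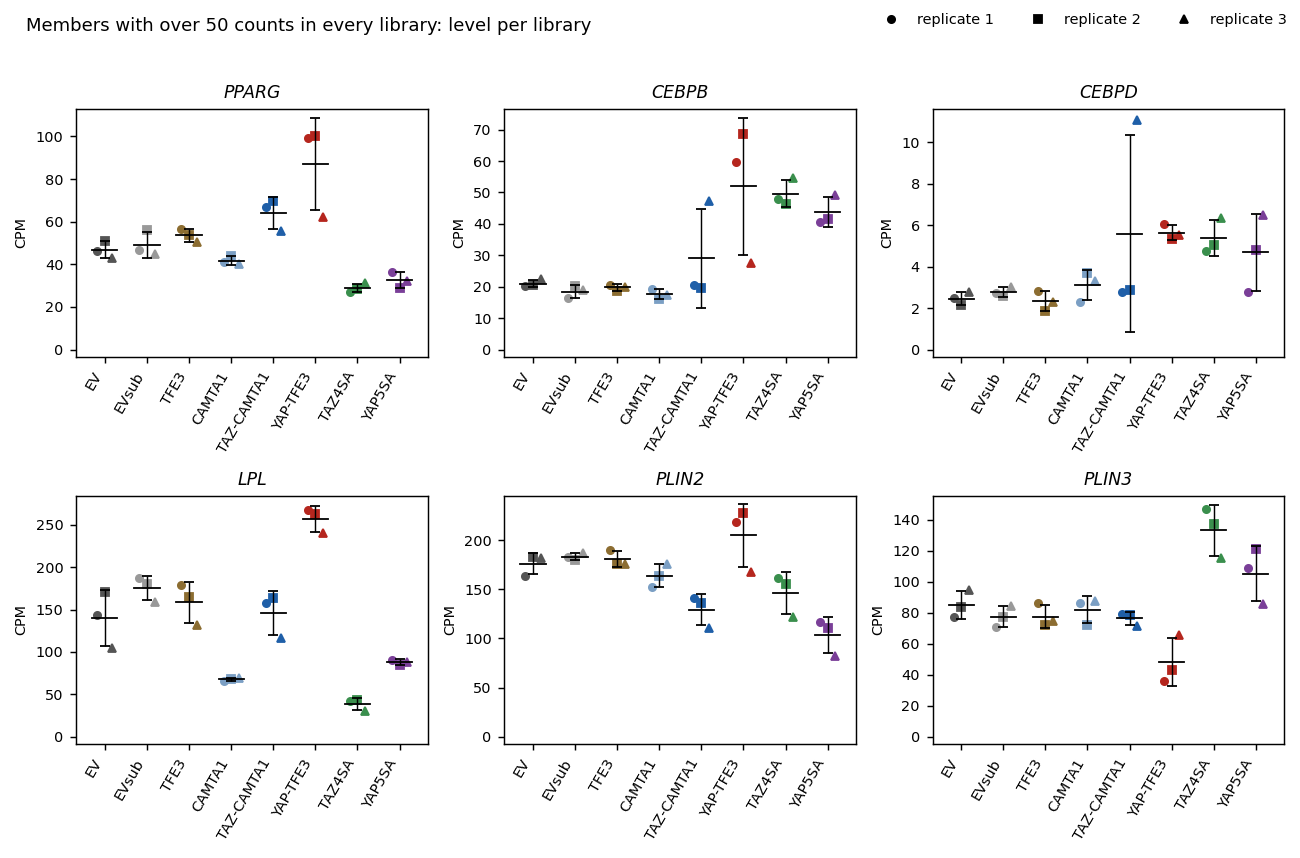
CPM of 6 members in each of the 24 libraries by group, points by replicate number and bars for mean ± SD of 3 libraries. PPARG and LPL were highest in YAP-TFE3 and lowest in TAZ4SA, PLIN3 was lowest in YAP-TFE3, and replicate 3 of TAZ-CAMTA1 and of YAP-TFE3 stood apart for CEBPB.

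LPL, the lipase of fat and muscle that supplies fatty acids to the cell, followed the same order of extremes as PPARG. LPL measured 144, 171 and 105 CPM in EV, 187, 180 and 159 CPM in EVsub, 179, 165 and 132 CPM in TFE3, and 66.1, 67.9 and 69.4 CPM in CAMTA1. It measured 158, 164 and 116 CPM in TAZ-CAMTA1, 268, 263 and 240.0 CPM in YAP-TFE3, 42.0, 43.0 and 30.6 CPM in TAZ4SA, and 90.9, 84.9 and 88.5 CPM in YAP5SA. YAP-TFE3 stood above every other library, and YAP5SA, CAMTA1 and TAZ4SA each formed a separate range below EV. LPL rose by 0.88 ± 0.15 in YAP-TFE3 (adjusted p = 3.12e-05) and fell by 1.86 ± 0.16 in TAZ4SA (7.45e-10) and by 0.67 ± 0.15 in YAP5SA (8.68e-04). It fell by 1.37 ± 0.15 in CAMTA1 against EVsub (2.51e-06), in a comparison where 0.57% of all genes were called lower. TAZ-CAMTA1 differed from EV by 0.06 ± 0.15 (0.883) and exceeded TAZ4SA by 1.92 ± 0.16 (4.22e-10), while YAP-TFE3 exceeded YAP5SA by 1.54 ± 0.15 (8.56e-09). EVsub against EV gave 0.32 ± 0.15 (0.0903), and 0.49 (0.0204) without EV replicate 2. LPL lies on chromosome 8 and no annotated gene overlaps it.

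CD36 and FABP4, which take up and carry fatty acids, were both sparse and highest in YAP-TFE3. No group was at the count floor for CD36. CD36 held 18, 21 and 29 counts in the YAP-TFE3 libraries and 0 to 14 counts in the other 21 libraries. In CPM this was 0.585, 0.659 and 0.839 in YAP-TFE3 against 0.311, 0.229 and 0.291 in EV. CD36 rose by 1.32 ± 0.41 in YAP-TFE3 against EV (adjusted p = 0.00998), by 1.32 ± 0.39 against TFE3 (0.00671) and by 1.53 ± 0.43 against YAP5SA (0.00457). In TAZ-CAMTA1, TAZ4SA and YAP5SA the CD36 differences from EV were 0.38 ± 0.46, -0.04 ± 0.50 and -0.22 ± 0.52, and none passed. CD36 overlaps 4 genes on the opposite strand.

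FABP4 was at the count floor in 7 of 8 groups. It held 23, 21 and 17 counts in YAP-TFE3, a single count in EVsub replicate 3 and 0 counts in the other 20 libraries. Against the floor of 3 counts in each library, the FABP4 level of YAP-TFE3 (0.633 ± 0.13 CPM) was at least 5.23-fold higher than EV, at least 6.89-fold higher than TFE3 and at least 4.69-fold higher than YAP5SA. With a mean of 2.58 counts FABP4 was under the minimum of 5 counts for the test, so no test of it is given. FABP4 overlaps a gene on the opposite strand of chromosome 8.

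ADIPOQ was at the floor throughout, with 0 counts in each of the 24 libraries. A count of 0 allows up to 3 counts, which is 0.0852 to 0.147 CPM in a single library and 0.00449 CPM over the 666452737 counts of all libraries. Of 5 markers of the mature fat cell, ADIPOQ, CIDEC, LEP and TRARG1 held at most 3 counts in every library, and the remaining PLIN1, the perilipin of the fat cell droplet, held at most 38. Summed over these 5 markers the libraries measured 0.421 to 1.27 CPM. Among the 8 mesenchymal markers, FN1 at 4160.0 ± 529 CPM and VIM at 804 ± 57.5 CPM were highest in EV. PDGFRB and COL1A2 followed at 295 and 110 CPM. PDGFRA, THY1, COL1A1 and COL3A1 measured 45.5, 26.4, 19.2 and 12.1 CPM in EV. These lower values lay within the EV range of the 5 endothelial markers, 1.71 to 93.7 CPM. The mesenchymal list therefore stood out through its most abundant genes and not as a whole. Of 5 macrophage markers PTPRC and AIF1 were at the floor in every library, CD14 and CSF1R measured 0.886 and 0.702 CPM in EV, and ADGRE1 measured 50.4 CPM in EV and carried the summed list, which was 49.1 to 55.4 CPM in EV, 34.2 to 70.8 in YAP-TFE3 and 32.3 to 44.5 in TAZ4SA. The summed mesenchymal markers measured 4880 to 5780 CPM in EV, 4190 to 5670 in YAP-TFE3, 5950 to 7660 in TAZ-CAMTA1, 5780 to 7670 in TFE3, 1930 to 2930 in TAZ4SA, 2020 to 3640 in YAP5SA, 2780 to 2980 in EVsub and 3060 to 3740 in CAMTA1. FN1 was the largest part of these sums in every group by mean. VIM came near it in TAZ4SA (FN1 1180 and VIM 1060 CPM) and in EVsub (1450 and 1080 CPM). In YAP-TFE3 against EV, 5 of the 8 mesenchymal markers were called lower (VIM, COL1A1, COL3A1, THY1 and PDGFRA) and PDGFRB higher, with a median log2 fold change of -0.65, and in TAZ4SA 5 were lower and VIM higher, with a median of -1.30. The sums were low with LPL in TAZ4SA, YAP5SA and CAMTA1, while in EVsub they were as low with LPL at 159 to 187 CPM. The part of these markers in the differences of the members was not tested. The 5 endothelial markers summed to 173 to 220 CPM in EV, 288 to 378 in TAZ4SA, 101 to 127 in YAP-TFE3, 84.2 to 110 in YAP5SA, 97.4 to 109 in CAMTA1, 127 to 178 in TAZ-CAMTA1, 146 to 235 in TFE3 and 123 to 128 in EVsub. In YAP-TFE3 against EV, PECAM1, CDH5, TIE1 and KDR were called lower. In TAZ4SA against EV, TIE1 (93.7 to 300 CPM) and VWF were called higher, while KDR (44.6 to 6.36 CPM) and PECAM1 (2.12 CPM in TAZ4SA) were called lower. The 3 epithelial markers summed to 0.63 to 2.41 CPM. Against EV (0.0242 CPM), CDH1 was called higher in TAZ-CAMTA1 (0.344), TAZ4SA (0.856), YAP-TFE3 (0.611) and YAP5SA (1.53). EPCAM, at 1.20 CPM in EV, was called lower in TAZ4SA and YAP5SA.

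**Figure D2:**
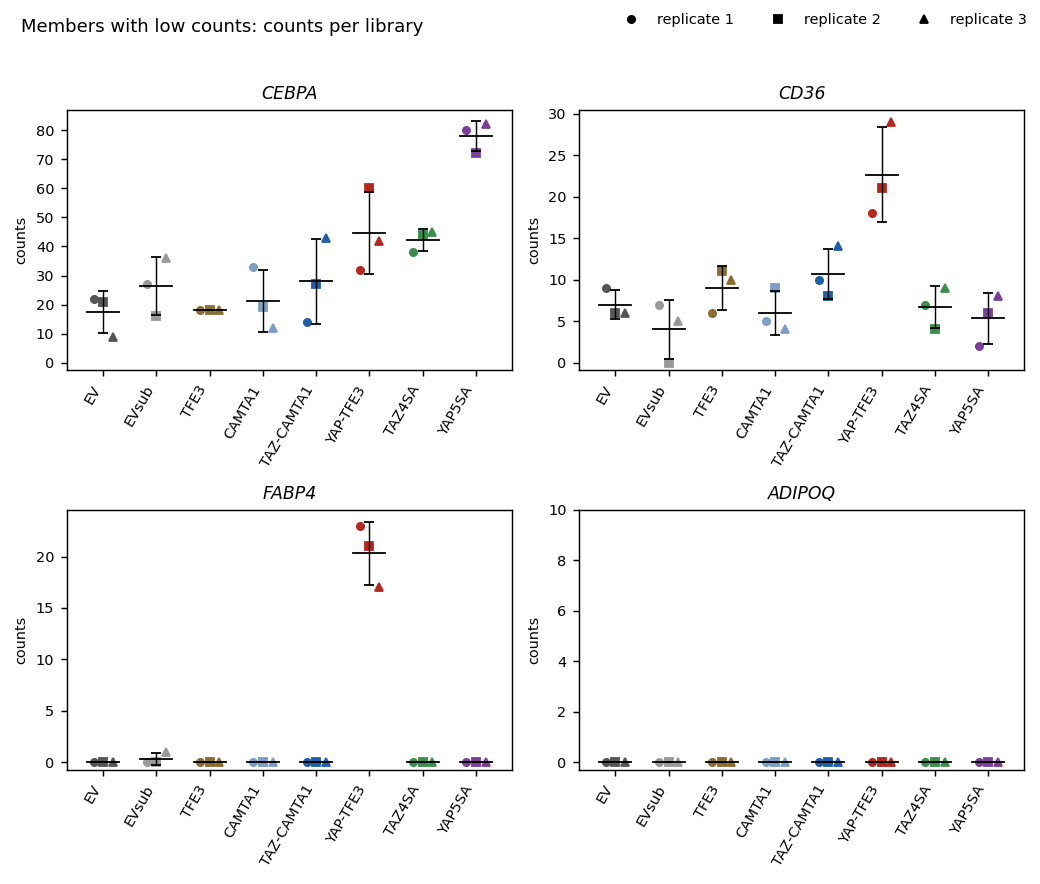
Counts of the 4 sparse members in each library by group, points by replicate number and bars for mean ± SD of 3 libraries. FABP4 counts of 17 to 23 and CD36 counts of 18 to 29 appear in YAP-TFE3, CEBPA counts of 72 to 82 in YAP5SA, and ADIPOQ is at 0 in all 24 libraries.

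The lipid droplet coat genes PLIN2 and PLIN3 differed in opposite directions between YAP-TFE3 and YAP5SA. PLIN2, which is stabilized by droplet lipid and coats droplets in nearly all cells, measured 164, 183 and 182 CPM in EV, 183, 180.0 and 187 CPM in EVsub, 190.0, 176 and 176 CPM in TFE3, and 152, 164 and 176 CPM in CAMTA1. It measured 141, 136 and 111 CPM in TAZ-CAMTA1, 219, 228 and 168 CPM in YAP-TFE3, 162, 155 and 122 CPM in TAZ4SA, and 117, 111 and 82.4 CPM in YAP5SA. All YAP5SA, TAZ-CAMTA1 and TAZ4SA libraries were below EV, and the YAP-TFE3 libraries overlapped EV. PLIN2 fell by 0.77 ± 0.13 in YAP5SA (adjusted p = 2.65e-05) and by 0.45 ± 0.13 in TAZ-CAMTA1 (0.0383). The TAZ-CAMTA1 call did not pass in 5 of 6 fits that left out a library, at -0.50 without EV replicate 1 (0.0517), -0.42 without EV replicate 2 (0.145) or replicate 3 (0.117), -0.49 without TAZ-CAMTA1 replicate 2 (0.0699) and -0.35 without replicate 3 (0.246). YAP-TFE3 exceeded YAP5SA by 0.99 ± 0.13 (6.05e-07). Against EV it differed by 0.22 ± 0.13 (0.162), and by 0.34 (0.0253) without YAP-TFE3 replicate 3. Against TFE3 it differed by 0.18 ± 0.13 (0.243), and by 0.31 (0.0433) without that library. TAZ4SA differed from EV by -0.27 ± 0.13 (0.0789), passing with total-count scaling (-0.47, 0.0015) and without TAZ4SA replicate 1 (-0.35, 0.0498).

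PLIN3, a cytosolic perilipin that loads onto nascent droplets, measured 77.1, 83.5 and 94.9 CPM in EV, 70.4, 77.3 and 84.0 CPM in EVsub, 86.0, 71.8 and 74.5 CPM in TFE3, and 86.5, 72.0 and 87.5 CPM in CAMTA1. It measured 78.9, 78.7 and 71.4 CPM in TAZ-CAMTA1, 36.2, 43.0 and 65.8 CPM in YAP-TFE3, 147, 137 and 115 CPM in TAZ4SA, and 109, 121 and 85.6 CPM in YAP5SA. All TAZ4SA libraries were above EV and all YAP-TFE3 libraries were below every other group. PLIN3 fell by 0.81 ± 0.16 in YAP-TFE3 (adjusted p = 1.65e-04) and rose by 0.64 ± 0.16 in TAZ4SA (0.00167). YAP5SA differed from EV by 0.31 ± 0.16 (0.119), and by 0.44 (0.0368) without YAP5SA replicate 3. The fusions were both below their activated parents, by -1.12 ± 0.16 for YAP-TFE3 (2.58e-06) and by -0.80 ± 0.16 for TAZ-CAMTA1 (1.68e-04). Without YAP-TFE3 replicate 3, PLIN3 in YAP-TFE3 differed by -1.10 against EV, -1.41 against YAP5SA and -0.97 against TFE3, all called.

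The ratio of PLIN2 to PLIN3 within a library, in counts per kb of exon, needs no scaling between libraries. The ratio was 1.14 ± 0.078 in EV, 1.30 ± 0.105 in EVsub, 1.28 ± 0.0652 in TFE3, 1.10 ± 0.145 in CAMTA1 and 0.924 ± 0.063 in TAZ-CAMTA1. It was 3.31, 2.90 and 1.39 in YAP-TFE3, 0.601 ± 0.0176 in TAZ4SA and 0.537 ± 0.041 in YAP5SA. The 6 libraries of TAZ4SA and YAP5SA lay below all others, and YAP-TFE3 replicates 1 and 2 above all others, while YAP-TFE3 replicate 3 fell within the EVsub range of 1.22 to 1.42. The ratio was not tested. The smallest p that an exact permutation test of 3 libraries against 3 can give is 0.1.

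**Figure D3:**
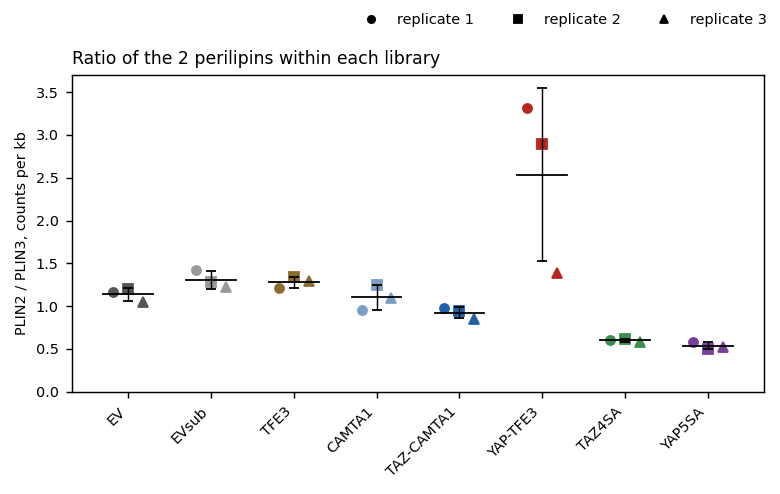
Ratio of PLIN2 to PLIN3 counts per kb of exon in each library by group, points by replicate number and bars for mean ± SD of 3 libraries. EV lies at 1.05 to 1.20, TAZ4SA at 0.583 to 0.618, YAP5SA at 0.503 to 0.583, and YAP-TFE3 spreads from 1.39 to 3.31.

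Within EV the order of levels per kb of exon was PLIN2 (35.2 ± 2.19 CPM per kb), LPL (33.8 ± 8.04), PLIN3 (31.1 ± 3.29), CEBPB (11.4 ± 0.661), PPARG (3.90 ± 0.34), CEBPD (1.97 ± 0.252), CEBPA (0.256 ± 0.0767) and CD36 (0.0254 ± 0.00394). The first 3 of these did not separate beyond their spread. Exon length was the union over all annotated transcripts, 11981 bases for PPARG and 10880 bases for CD36, which lowers the values of genes with many transcripts.

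Counted by comparison, 8 of the 10 members passed the filter of a mean of 5 counts and were tested. In YAP-TFE3 against EV, 6 of 8 were higher and 1 lower, with 25.6% of all 19997 tested genes called higher and 22.6% lower. The median log2 fold change of the members was 0.96 and that of all tested genes -0.01. In TAZ4SA against EV, 4 were higher and 2 lower (25.1% and 24.2% of all genes), and in YAP5SA against EV 2 were higher and 3 lower (22.7% and 21.6%). In TAZ-CAMTA1 against EV, PLIN2 alone was called, lower, where 3.55% of all genes were called higher and 1.44% lower. In CAMTA1 against EVsub, LPL alone was called, lower, where 1.26% were higher and 0.57% lower.

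No member was called in TFE3 against EV by edgeR or by DESeq2, and 0 had an unadjusted p under 0.05, in a comparison that called 0.035% of all genes higher and 0.0% lower. No member was called in EVsub against EV by edgeR or by DESeq2, and LPL had an unadjusted p of 0.039, where 19.8% of all genes were called higher and 17.1% lower. Over these 10 comparisons 38 of the 80 pairs of a tested member and a comparison were called. The comparisons with EV share its 3 libraries.

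**Figure D4:**
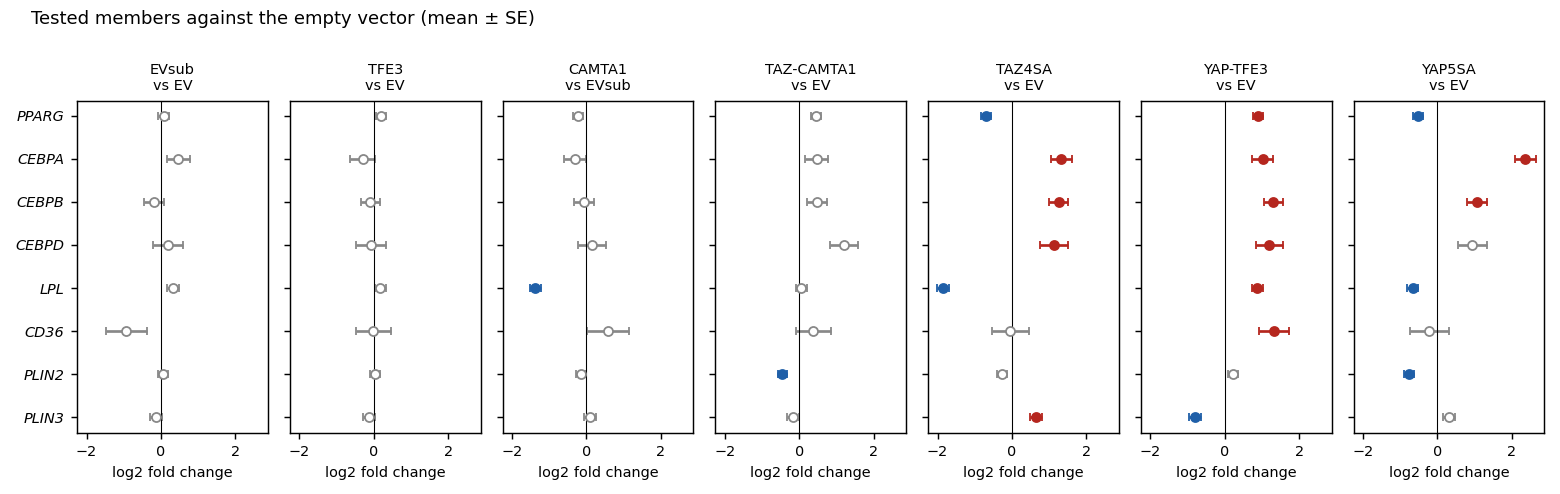
Log2 fold change ± SE of the 8 tested members against the empty vector in 7 comparisons, filled red for called higher, filled blue for called lower and open grey for not called. CEBPA and CEBPB are filled red in TAZ4SA, YAP-TFE3 and YAP5SA, PPARG and LPL are red in YAP-TFE3 and blue in TAZ4SA and YAP5SA, and the TFE3 and EVsub panels hold no filled point.

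PPARG and LPL were higher, and PLIN3 lower, in the fusion than in the parent in all 3 direct comparisons. TAZ-CAMTA1 against TAZ4SA had PPARG and LPL higher and CEBPA, CEBPB and PLIN3 lower, 2 and 3 of 8, where 26.9% of all genes were called higher and 26.8% lower. YAP-TFE3 against YAP5SA had PPARG, LPL, CD36 and PLIN2 higher and CEBPA and PLIN3 lower, 4 and 2 of 8, where 28.1% were higher and 24.3% lower. YAP-TFE3 against TFE3 had 6 higher (PPARG, CEBPA, CEBPB, CEBPD, LPL and CD36) and PLIN3 lower, where 25.4% were higher and 22.5% lower. In that comparison CEBPA rose by 1.32 ± 0.29 (adjusted p = 6.03e-04), CEBPB by 1.39 ± 0.26 (1.10e-04), CEBPD by 1.27 ± 0.37 (0.0059) and LPL by 0.69 ± 0.15 (4.39e-04), and PLIN3 fell by 0.68 ± 0.16 (0.00105).

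**Figure D5:**
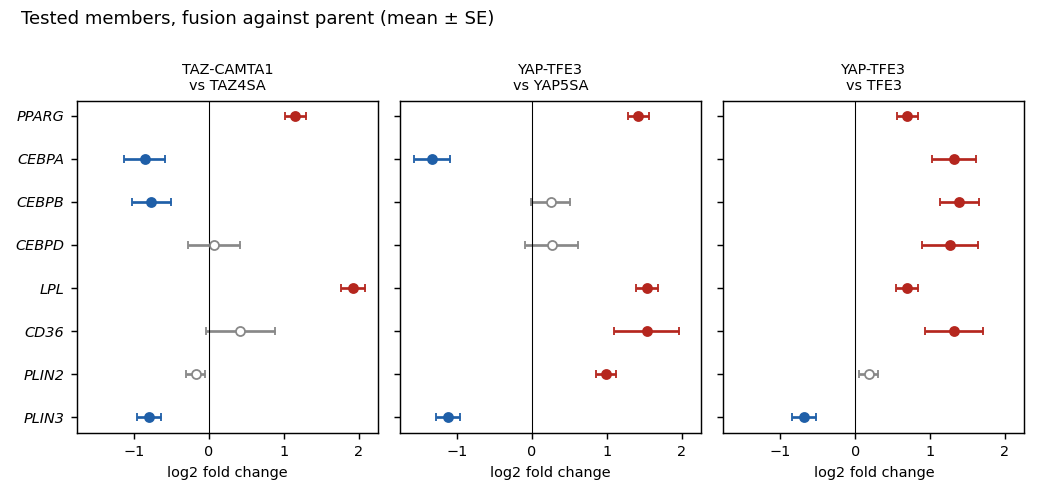
Log2 fold change ± SE of the 8 tested members in the direct comparisons of TAZ-CAMTA1 with TAZ4SA, YAP-TFE3 with YAP5SA and YAP-TFE3 with TFE3, filled red for called higher, filled blue for called lower and open grey for not called. PPARG and LPL are red and PLIN3 blue in all 3 panels, and CEBPA is blue against TAZ4SA and YAP5SA and red against TFE3.

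Other regulators of adipogenesis were counted from a list of 16 genes, all tested. In YAP-TFE3 against EV 4 rose and 4 fell, a share near the 25.6% and 22.6% of all genes, and the median was 0.19 against -0.01 for all tested genes. PPARGC1A, the coactivator of PPARG linked to oxidative metabolism, rose from 0.420 ± 0.0999 to 9.01 ± 1.20 CPM (log2 fold change 4.44 ± 0.29, adjusted p = 1.07e-11). KLF15, a factor that promotes PPARG expression, rose from 2.14 ± 0.546 to 22.4 ± 7.74 CPM (3.40 ± 0.23). EBF1, an early factor of the fat lineage, and KLF5, which acts downstream of CEBPB, fell by 1.01 ± 0.17 and by 0.76 ± 0.13. In TAZ4SA against EV 5 rose and 4 fell, with KLF15 at 1.66 ± 0.24 and KLF4 at 1.58 ± 0.27 among those higher, and in YAP5SA against EV 5 rose and 4 fell, where all genes gave 25.1% and 24.2% (TAZ4SA) and 22.7% and 21.6% (YAP5SA). EBF1 fell from 38.0 ± 3.03 CPM in EV to 3.51 ± 0.111 in TAZ4SA and 4.62 ± 0.334 in YAP5SA. It was also called lower in EVsub against EV, at 27.4 CPM. NR1H3, the liver X receptor alpha, fell by 1.06 ± 0.15 in TAZ4SA and by 1.44 ± 0.15 in YAP5SA. It was also called lower against EV (46.2 CPM) in YAP-TFE3 (28.8 CPM) and in EVsub (27.9 CPM). KLF4 was also called higher in YAP-TFE3 against EV, at 25.5 against 4.14 CPM. KLF5 was the single gene of this list called in TAZ-CAMTA1 against EV, at 0.62 ± 0.12 (0.00236) where 3.55% of all genes were called higher, and in YAP5SA it rose by 1.24 ± 0.12. In EVsub against EV, ZNF467, a zinc finger factor of the list, fell by 1.30 ± 0.19.

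Of 14 inhibitors of adipogenesis, 4 rose and 4 fell in YAP-TFE3, 6 rose and 3 fell in TAZ4SA, and 5 rose and 4 fell in YAP5SA, all against EV. The shares over all genes were 25.6% and 22.6%, 25.1% and 24.2%, and 22.7% and 21.6% in the same order. DDIT3, a C/EBP family member that blocks CEBPB and that is also a stress gene, rose from 12.4 ± 3.33 CPM in EV to 126 ± 76.8 in YAP-TFE3 (3.36 ± 0.35, adjusted p = 3.05e-08), 43.5 ± 8.29 in TAZ4SA and 36.0 ± 8.75 in YAP5SA. DLK1, the preadipocyte factor, fell from 9.25 ± 4.18 CPM to 1.27 ± 0.604 in TAZ4SA and 0.847 ± 0.421 in YAP5SA. ZNF521, which represses EBF1 activity, fell in all of these, by 0.67 ± 0.12 in YAP-TFE3, by 1.22 ± 0.12 in TAZ4SA and by 1.69 ± 0.12 in YAP5SA. It also fell in EVsub against EV, by 0.86 ± 0.12. The median of this list was 0.19 in YAP-TFE3, -0.10 in TAZ4SA and 0.05 in YAP5SA.

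Among 21 other lipid droplet genes, of which 16 were tested, 6 rose and 2 fell in YAP-TFE3, 6 rose and 1 fell in TAZ4SA, and 4 rose and 1 fell in YAP5SA, where 25.6% and 22.6%, 25.1% and 24.2%, and 22.7% and 21.6% of all genes rose and fell. PLIN4, a perilipin of fat cells, rose from 0.871 ± 0.00687 CPM in EV to 6.10 ± 0.791 in YAP-TFE3 (2.80 ± 0.25, adjusted p = 2.82e-09). MGLL, which completes the hydrolysis of triglyceride to fatty acid and glycerol, rose from 62.4 ± 6.88 CPM to 235 ± 37.8 in TAZ4SA and 196 ± 27.8 in YAP5SA. It was also called higher in YAP-TFE3, at 103 CPM. DGAT2, which makes triglyceride, fell by 0.82 ± 0.13 in YAP-TFE3, and HSD17B11, a droplet-associated dehydrogenase, fell by 0.43 ± 0.10 in YAP-TFE3, by 0.52 ± 0.10 in TAZ4SA and by 0.42 ± 0.10 in YAP5SA. Against TAZ4SA, TAZ-CAMTA1 had 1 higher and 7 lower in this list (26.9% and 26.8% of all genes), with a median of -0.27.

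Of 22 genes of fatty acid uptake and glycerolipid synthesis 19 were tested, and in YAP-TFE3 against EV 10 rose and 2 fell, where 25.6% and 22.6% of all genes did, with a median of 0.25. FABP3, the fatty acid binding protein of heart and muscle, rose from 2.71 ± 0.457 CPM in EV to 18.6 ± 0.804 in YAP-TFE3 (2.79 ± 0.22) and 12.8 ± 5.08 in YAP5SA (2.24 ± 0.23). ANGPTL4, a secreted inhibitor of LPL, rose by 1.95 ± 0.44 in YAP-TFE3 (adjusted p = 6.65e-04). VLDLR, a lipoprotein receptor, rose from 15.5 CPM in EV to 58.0 in YAP-TFE3, 54.1 in TAZ4SA and 53.4 in YAP5SA. ACSL1, which activates fatty acids, rose from 22.1 CPM to 49.7 in YAP-TFE3, 43.7 in TAZ4SA and 36.9 in YAP5SA. ACSL4 fell in YAP-TFE3 by 0.67 ± 0.12, in TAZ4SA by 0.91 ± 0.12 and in YAP5SA by 0.72 ± 0.12, and LPIN2, a phosphatidate phosphatase, fell by 0.82 ± 0.10 in TAZ4SA and by 0.87 ± 0.10 in YAP5SA. In TAZ4SA 5 rose and 5 fell (25.1% and 24.2% of all genes), and in YAP5SA 3 rose and 4 fell (22.7% and 21.6%). Against YAP5SA, YAP-TFE3 had 11 higher and 2 lower (28.1% and 24.3%). In CAMTA1 against EVsub, VLDLR rose by 0.55 ± 0.11 (0.00607) and SLC2A4, the insulin-responsive glucose transporter, fell by 0.55 ± 0.15 (0.0493). Of 10 other secreted and surface genes of fat cells, 4 had enough counts to be tested, and ADIPOR1, an adiponectin receptor, rose in TAZ4SA, YAP-TFE3 and YAP5SA by 0.43 ± 0.09, 0.42 ± 0.09 and 0.42 ± 0.09.

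EVsub and EV carry the same vector and differ in confluence at collection. Of the genes of fatty acid uptake and glycerolipid synthesis 8 of 19 rose and 6 fell, where 19.8% of all genes rose and 17.1% fell, with FABP3 at 1.46 ± 0.23 and FABP5 at 0.77 ± 0.20 higher and SLC27A1, a fatty acid transporter, at -0.75 ± 0.12. The same comparison called 2 higher and 4 lower of the 16 tested lipid droplet genes, with MGLL at 0.53 ± 0.16 and PNPLA2, the adipose triglyceride lipase, at -0.60 ± 0.16.

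For the 7 members whose group means spanned at least 1 on the log2 scale, which leaves out PLIN2 among those tested, the genes nearest in pattern were taken from 12155 genes by the root mean square difference of centred log2 CPM means over the 8 groups. LGALSL and FNDC3B were nearest to PPARG at 0.10 each, and FNDC3B measured 172 CPM in YAP-TFE3 and 56.9 CPM in TAZ4SA. SOCS3 was nearest to CEBPB at 0.09 and NFKBIE next at 0.10. MCAM was nearest to CEBPA at 0.22, TP53I11 and PARVA to CEBPD at 0.14 each, FRRS1 to LPL at 0.30, DLGAP1-AS1 and EEIG1 to CD36 at 0.20 each, and SZRD1 to PLIN3 at 0.07. ITGA1, second to LPL at 0.33, measured 688 CPM in YAP-TFE3 and 93.5 CPM in TAZ4SA. These distances are descriptions over 8 group means of the same 24 libraries.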

How the data were processed

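Poly(A) RNA of SW872 cells was sequenced as paired-end, stranded libraries. The authors converted reads with bcl2fastq, aligned them to hg38 with Ensembl release 78 annotation in bcbio-nextgen, and deposited whole-number counts per Ensembl gene, with no normalization and no pooling. Which program counted reads, and how it treated strand and multiply mapped reads, is not given in the sources used here. The study ran DESeq2 on salmon estimates. Groups and replicate numbers came from sample titles, and per the study's methods replicates were separate transductions.

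Counts of all 24 libraries were fitted with edgeR 4.0.16 (R 4.3.3) with 1 mean per group, TMM scaling and the quasi-likelihood F test. Tests covered the 19997 genes that averaged 5 counts or more, with Benjamini-Hochberg adjusted p-values called under 0.05. SE was computed from the fold change and F. A group was at the floor where every library held at most 3 counts, and folds against the floor are lower bounds. Limits cover counting error only. CPM, the log2 scale (prior count 2) and exon lengths per kb (GENCODE 44, union of exons) were computed here, with 56104 identifiers matched. DESeq2 1.42.0, total-count scaling, other filters, a fit of the compared groups alone, the replicate number as a block and leaving out libraries were alternatives.

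Genes outside the 10 members were named by a rule: up to 2 risen and 2 fallen genes of each list and comparison with a control, ranked by size of change among those called, averaging 100 counts or more and free of overlap between groups. Fewer were printed. The members, lists and rules were chosen with earlier results of these data known.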

Additional observations from a re-analysis of the deposited data

How the results depend on the processing

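The count of called members changed by over 1.5 times in a few alternatives. For TAZ-CAMTA1 against EV, 1 member was called, and 2 were called with DESeq2, 0 with a minimum mean of 1 count, 4 with no filter beyond 1 count, 2 with the replicate block and 2 with the compared groups alone. For EVsub against EV, 0 were called, and 1 (LPL) with no filter beyond 1 count and 1 with the replicate block. Leaving out a library gave 0 to 2 called members for TAZ-CAMTA1 against EV, 0 to 1 for EVsub against EV and 3 to 6 for TAZ-CAMTA1 against TAZ4SA. The cause of these moves was not tested. Of the 38 called differences, DESeq2, the replicate block, the compared groups alone, filterByExpr and no filter beyond 1 count kept all on their side of the threshold, total-count scaling lost 2 and a minimum mean of 1 count lost 1 (PLIN2 in TAZ-CAMTA1, adjusted p = 0.0521). Leaving out a library lost 11 of 228 such calls, named with the members above. None of the 38 changed sign in any alternative run.

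Same-numbered replicates were not paired, since the correlation of their deviations from the group means ranged from -0.3 to 0.216. With the replicate block, PPARG in TAZ-CAMTA1 against EV was called at 0.45 (0.0315), PLIN2 in TAZ4SA at -0.28 (0.0451), CEBPD in YAP5SA at 0.89 (0.0369) and LPL in EVsub at 0.34 (0.0199).

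Signs changed among differences that were not called. With total-count scaling CD36 in TFE3 against EV was 0.00, PLIN2 in EVsub against EV -0.01 and PLIN2 in TAZ-CAMTA1 against TAZ4SA 0.02. With no filter CD36 in TFE3 was 0.02. With confluent EV as its control, CAMTA1 gave -0.36 for CD36, -0.05 for PLIN3 and 0.15 for CEBPA. CEBPD in TAZ-CAMTA1 against TAZ4SA was -0.03 with the replicate block and -0.92 without both libraries that stood apart, an alternative chosen after seeing the data, and CEBPB in TAZ-CAMTA1 against EV was then -0.07. Leaving out a library, signs changed within the ranges -0.11 to 0.23 for LPL and -0.07 to 0.70 for CEBPB in TAZ-CAMTA1, -0.27 to 0.18 for CD36 in TAZ4SA, -0.53 to 0.14 for CD36 in YAP5SA, -0.16 to 0.24 for CD36, -0.23 to 0.06 for CEBPD and -0.02 to 0.06 for PLIN2 in TFE3, -0.03 to 0.33 for CEBPD and -0.15 to 0.00 for CEBPB in CAMTA1, -0.04 to 0.13 for PPARG in EVsub, -0.92 to 0.39 for CEBPD in TAZ-CAMTA1 against TAZ4SA, and 0.00 to 0.57 for CEBPD and -0.01 to 0.55 for CEBPB in YAP-TFE3 against YAP5SA. Depth limits CD36, CEBPA and FABP4, whose counts were 0 to 29, 9 to 82 and 0 to 23.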
